A study of Mus musculus with 15 samples.

Results

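The genes of the cytoplasmic ribosomal proteins were followed through 15 ATAC-seq libraries of sorted mouse microglia, the resident macrophages of the brain. ATAC-seq cuts open chromatin with a transposase, so that a peak of cuts marks accessible DNA. Members were the protein-coding genes of the RefSeq annotation of mm10 whose symbol begins with Rpl or Rps and a digit, with Rplp0, Rplp1 and Rplp2, and without the Rps6k kinases and the genes ending in -ps. The rule gave 88 of 21627 protein-coding genes on chromosomes 1 to 19 and X, namely 43 genes of the large subunit, 30 of the small subunit, 3 of the stalk, and 12 copies or related genes such as Rpl3l and Rps27l. No accessibility value was used to choose them.

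All mice were labelled C57BL/6. The untreated young groups were WT and IRF8KO at postnatal day 9 (P9) and day 14 (P14), and the groups at 10 months were WT mice and 5xFAD mice, all given the amyloid-binding dye methoxy-X04, with the 5xFAD cells sorted as X04 negative or X04 positive. IRF8 regulates transcription in myeloid cells, and neither the deleted part of Irf8 nor the cells that lack it are stated in the labels. The 5xFAD line carries human transgenes with familial Alzheimer's disease mutations under Thy1 regulatory sequence and deposits amyloid. IRF8KO at P9 had 3 libraries and every other group had 2. Whether the replicates are different mice is not labelled, so every p-value rests only on how far these libraries vary, a spread that may be technical.

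A ribosome joins a small subunit, which reads the messenger RNA, to a large subunit, which forms the peptide bond. Each holds ribosomal RNA and many kinds of protein that are needed in near equal number, and the stalk proteins, encoded by Rplp0, Rplp1 and Rplp2, recruit the translation factors that hydrolyse GTP. The genes are active in practically every cell, and Rplp0, Rpl13a and Rps18 are widely used as references in expression assays. Their messenger RNAs begin with a C followed by a run of pyrimidines, through which growth signals adjust their translation, and many of the genes host small nucleolar RNAs (snoRNAs) in their introns.

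The deposited files are peak lists without read counts, so each gene was placed by rank. In each list a gene took its best peak, by the authors' −log10 p, among those with a summit within 1 kb of its body, and all 21627 genes were ranked by it, with rank 1 the best and genes without a peak sharing the last ranks. A peak was called strong when it was among the 30000 top peaks of its list. Libraries differed in strength. The −log10 p of the peak at place 30000 was 39.07 and 54.31 in WT and 73.4 to 80.65 in IRF8KO at P9, 61.78 and 68.19 in WT and 22.83 and 26.55 in IRF8KO at P14, and 18.63 to 24.3 in the WT and X04 negative libraries at 10 months. It was 6.29 and 6.04 in the X04 positive libraries. Irf8 itself ranked from 6090 to 9021 in all 15 libraries, and its peaks check no label, since the deleted part is not known here. All 10 microglia markers examined had a peak in all 15 libraries, and 9 of them a strong one in all 15. The exception was C1qa, strong in 14.

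Examples of the promoters are shown first. Each was chosen for one of the motifs searched, among members whose median summit lay within 100 bp of the start. A RefSeq promoter (assembly GRCm38.p6, the same build as mm10) was matched to 68 of the 88 members, and 66 promoters of 56 subunit and stalk genes were searched against 21044 promoters of all genes, each spanning 250 bases before to 50 bases after a listed start. CCGGAAG, the core of an ETS factor site, was found on either strand in 24 of 66 (36.4%) against 11.7% of all promoters. AAGATGG, the core of a YY1 site, was found in 11 (16.7%) against 6.3%. GGGCGG, the core of an SP1 site, was found in 40 (60.6%) against 46.7%, and TATAAA, the box bound by TBP, in 6 (9.1%) against 12.7%. The 135 bases from 120 before a start to 15 from it are printed for 5 members, in lower case and on the strand of the gene, with the named motif in capitals, whichever strand it was read on. They are Rpl31 (chr1:39367731-39367865, plus strand) for the ETS core, Rps27 (chr3:90213634-90213768, minus strand) for the YY1 core, Rpl34 (chr3:130730323-130730457, minus strand) for the SP1 core, Rpl36a (chrX:134585534-134585668, plus strand) for TATAAA, and Rps12 (chr10:23787195-23787329, minus strand) for CTTTTC near the start. At Rpl31, Rpl36a and Rps12 the capitals lie past the listed start, and at Rps27 and Rpl34 before it. Further matches in these stretches, namely SP1 cores at Rpl31, CTTTCC at Rps27, and CTTTTC and the ETS core at Rpl34, are left in lower case.
Rpl31: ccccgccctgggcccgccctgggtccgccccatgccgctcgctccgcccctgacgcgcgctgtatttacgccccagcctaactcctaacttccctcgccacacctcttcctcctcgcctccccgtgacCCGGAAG
Rps27: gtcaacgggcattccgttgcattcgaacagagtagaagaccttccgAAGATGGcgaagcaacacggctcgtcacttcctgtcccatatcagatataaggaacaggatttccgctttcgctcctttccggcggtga
Rpl34: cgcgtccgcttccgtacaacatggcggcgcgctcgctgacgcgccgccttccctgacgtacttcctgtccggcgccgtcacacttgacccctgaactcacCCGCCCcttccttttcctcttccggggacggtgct
Rpl36a: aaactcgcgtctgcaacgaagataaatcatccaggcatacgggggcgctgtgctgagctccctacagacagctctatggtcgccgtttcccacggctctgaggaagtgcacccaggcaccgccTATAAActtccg
Rps12: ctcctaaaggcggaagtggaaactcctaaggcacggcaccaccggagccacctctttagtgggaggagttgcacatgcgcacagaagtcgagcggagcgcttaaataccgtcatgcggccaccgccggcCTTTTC
A pyrimidine tract at the start was the other feature searched. CTTTCC or CTTTTC on the strand of the gene within 20 bases of the start was found in 14 of 66 promoters (21.2%) against 3.2% of all. A C exactly at the listed start with 4 pyrimidines after it was found in 13 (19.7%) against 2.2%. Within 1 base of the listed start that pattern was found in 18 (27.3%) against 6.2%. The median GC content was 58.2% against 56.7%. These are shares of letters in a window and name no bound factor.

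The best summit of most ribosomal protein genes lay at the start of the gene. Of the 67 members with a listed start and a peak, 59 (88.1%) had their best summit within 500 bp of a start, against 52.5% of 15514 genes and 56.6% of the 7740 of these up to 20 kb long. Within 100 bp the shares were 64.2% and 33.7%. The median summit lay 49.0 bp before the start (−49.0, quartiles −101.0 and 9.5), which places it over the sequences shown rather than in the transcribed body. In all 15 libraries the summit of Rpl31 fell within a range of 30 bp, with a median 50 bp before the start (−50). The median summits of Rpl34 (−4.0), Rps27 (−77.0), Rpl36a (−47.0) and Rps12 (−76.0) also lay within the printed stretches. These promoters were picked for a median summit within 100 bp of the start, so that place was largely set by the choice.

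**Figure D1:**
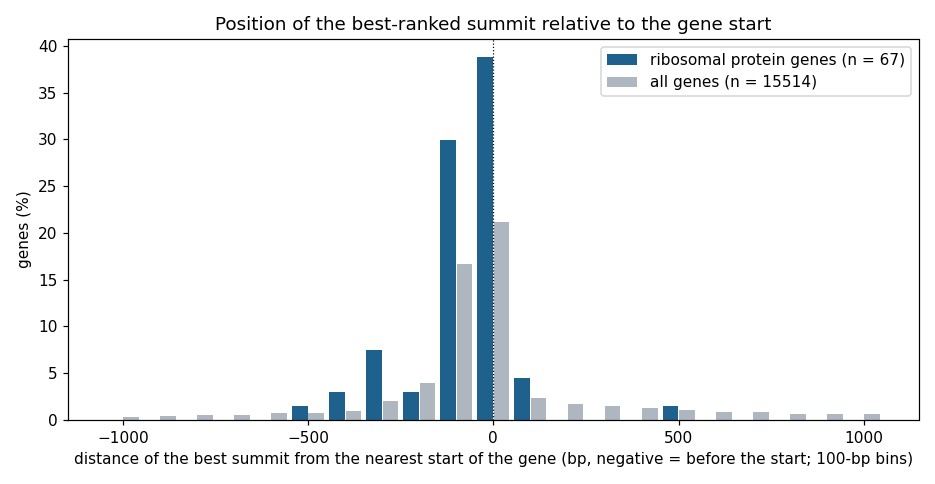
Share of genes (%, vertical axis) by the distance of the best summit from the nearest listed start (bp, horizontal axis, negative before the start, bins of 100 bp), for 67 ribosomal protein genes and 15514 genes of all kinds. The 2 central bins hold 38.8% and 29.9% of the ribosomal protein genes, and distances beyond 1000 bp lie outside the axis.

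In 8 of the 67 the best summit lay beyond 500 bp from a start, and in several of them another gene shared it. The best summit at Rpl4, a large subunit gene, was shared with Snapc5, that at Rpl18 with Sphk2, that at Rpl41 with Zc3h10 and that at Rpl3l with Msrb1. At Rps9, a small subunit gene, the median summit lay 3141 bp after the start, but in 2 of 15 libraries the best summit lay within 500 bp of it. Of the 88 members, 20 shared their best summit with another gene. Among them were Rpl15 with Nkiras1, Rplp2 with Pidd1, Rpl12 with Lrsam1 and Rpl36al with Mgat2. Others were Rps18 with Vps52, Rps27 with Rab13 and Rpl37 with Card6. For all of these the rank cannot be given to one gene or the other. Gene bodies of 29 of the 88 members (33.0%) held snoRNA genes, 56 in all, against 1.7% of all protein-coding genes.

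Every gene of a ribosomal subunit or the stalk had a peak in every library. Of the 88 members, 82 (93.2%) had a peak in all 15 libraries, against 64.7% of all genes, and the 76 subunit and stalk genes all did. A strong peak in all 15 libraries was present at 67 members (76.1%), against 41.1% of all genes and 31.1% of the 11653 genes up to 20 kb long. Among the subunit and stalk genes it was 63 of 76 (82.9%), and over the 13 libraries other than X04 positive it was 68 (89.5%). When only summits inside the gene body were taken, the count of 67 fell to 12, because the summits lie just before the start.

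The 6 members that were strong in no library were all copies or related genes. Rpl10l, a retrogene of Rpl10 known from testis, had a peak in 0 libraries, Rps27rt and Rpl32l in 1 each, Rpl39l in 3, Rpl37rt in 11 and Rps23rg1 in 12. The other 6 of this kind (Rpl3l, Rpl7l1, Rpl22l1, Rpl36al, Rps19bp1 and Rps27l) had a peak in all 15. Among the subunit genes Rpl19 was the exception. It had a peak in all 15 libraries that was strong in only 2, and it was not strong in 13. Rpl23 and Rpl38 were not strong in 7 libraries each, Rpl26 in 4, Rps28 in 3, Rpl12 and Rpl35a in 2 each, and Rpl6, Rps9, Rps15a, Rpl8, Rps4x, Rps19bp1 and Rpl7l1 in 1 each. The number of members with a strong peak was 80 and 80 in WT and 81, 80 and 79 in IRF8KO at P9, 82 and 81 in WT and 80 and 79 in IRF8KO at P14, 78 and 78 in WT and 77 and 78 in X04 negative cells at 10 months, and 72 and 76 in X04 positive cells.

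**Figure D2:**
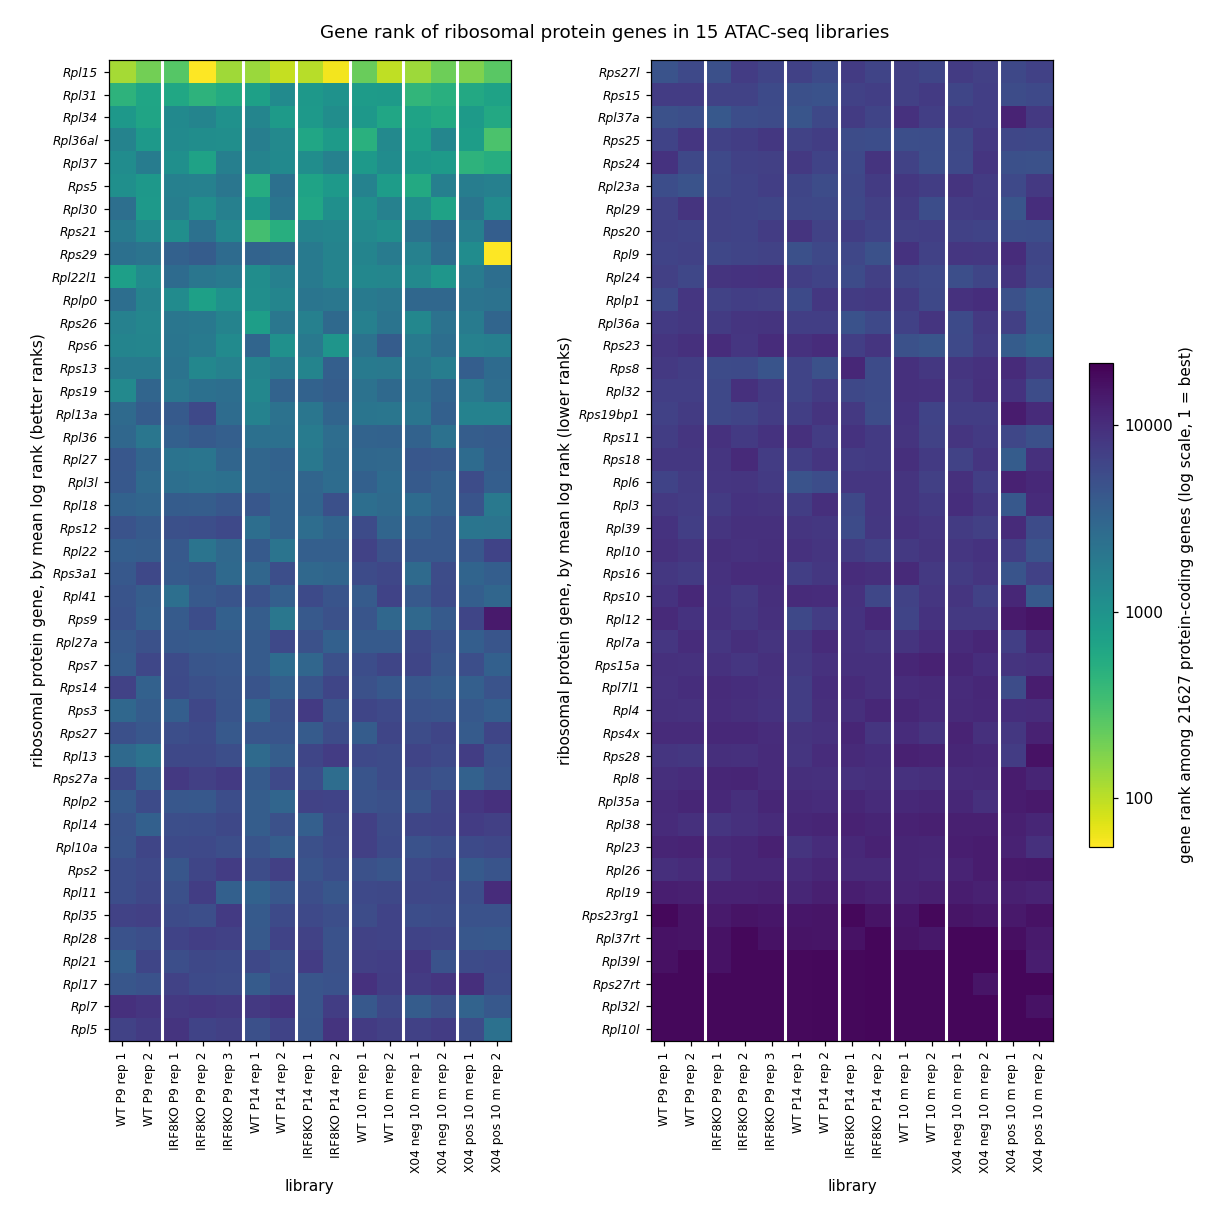
Gene rank (colour, log scale, 1 is best) of the ribosomal protein genes reported here (rows, in order of mean log rank, the better ranks at left) in the 15 libraries (columns, white lines between groups). Rpl15 is at the top in colour and row, the copies strong in no library fill the bottom of the right panel, and Rps29 in the second X04 positive library (rank 4) stands out from its row (the colour scale ends at 54.5, the best rank of Rpl15).

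Among the subunit and stalk genes, ranks ran from Rpl15 near the top of the genome to Rpl19 past its middle, and the 6 copies strong in no library ranked lower still. Rpl15, a large subunit protein gene, ranked at 122.5 and 196.5 in WT and 262.5, 54.5 and 128.5 in IRF8KO at P9, and at 135.5 and 92.5 in WT and 102.5 and 60.5 in IRF8KO at P14. The WT libraries of 10 months had 212.5 and 97.5, the X04 negative 130.5 and 202.5, and the X04 positive 172.5 and 254.5. The groups overlapped, and no library put it past rank 262.5. Its peak had an authors' fold enrichment of 19.2 to 30.6. Among the next by geometric mean over 15 libraries were Rpl31 at 663, Rpl34 at 878 and Rpl36al at 930. Rpl19 had a geometric mean of 12499 and ranged only from 11358.5 to 13360.5, with a fold of 3.9 to 10.5. The common reference genes lay between, Rplp0 at 1733, Rpl13a at 2515 and Rps18, whose summit is shared with Vps52, at 7835. Rplp0 ranged from 727 to 2965, Rpl13a from 1511.5 to 5806 and Rps18 from 3766 to 10626.5, so each moved by a factor of over 2 between libraries, and none of the 3 was called in any of the 6 comparisons below. The stalk gene Rplp0, whose groups overlapped at neither young age, stood at 976 in IRF8KO and 1917 in WT at P9 (log2 position 0.97, adjusted p = 0.139) and at 2084 and 1273 at P14 (−0.71, adjusted p = 0.296), geometric means in opposite order. The 4 X-linked members had geometric means of 6886 (Rpl36a), 8023 (Rpl39), 8198 (Rpl10) and 10010 (Rps4x).

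The middle of the set stayed in a narrow band of ranks. The median member rank, averaged over the libraries of a group, was 6147.12 ± 19.62 (SD, n = 2) in WT and 6368 ± 408.11 (n = 3) in IRF8KO at P9, and 5401.25 ± 492.85 in WT and 5846.62 ± 1.94 in IRF8KO at P14 (each n = 2). The WT cells of 10 months had 6453.88 ± 319.79, the X04 negative cells 6432.5 ± 317.49 and the X04 positive cells 5382.5 ± 18.74 (each n = 2). The middle of all 21627 genes is near 10814, so the median member stood before the middle of the genome in all 7 groups. The number of summits of any strength at the members ran from 268.67 ± 6.51 in IRF8KO at P9 (n = 3) to 208.0 ± 7.07 in IRF8KO at P14 and 149.0 ± 8.49 in X04 positive cells (each n = 2). At all genes it was 112927.67 ± 714.59, 106525.5 ± 10750.14 and 111846 ± 492.15 in the same order. An interval can hold several summits. Replicate 3 of IRF8KO at P9 had 157855 in 124531 distinct intervals, and replicate 2 of X04 positive 187543 in 183415. The part of this in the member counts was not tested. The median width of a member's best peak was 702 to 851 bp in the young libraries, 585 to 661 bp in WT and X04 negative cells at 10 months, and 420.5 and 462 bp in X04 positive cells. In each library it was wider than the median over all genes with a peak, which ran from 364 to 669 bp. The gap was smaller against genes whose best peak was strong, with medians of 449 to 750 bp. In X04 positive replicate 1 the member median was narrower than that of such genes (420.5 against 460 bp).

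**Figure D3:**
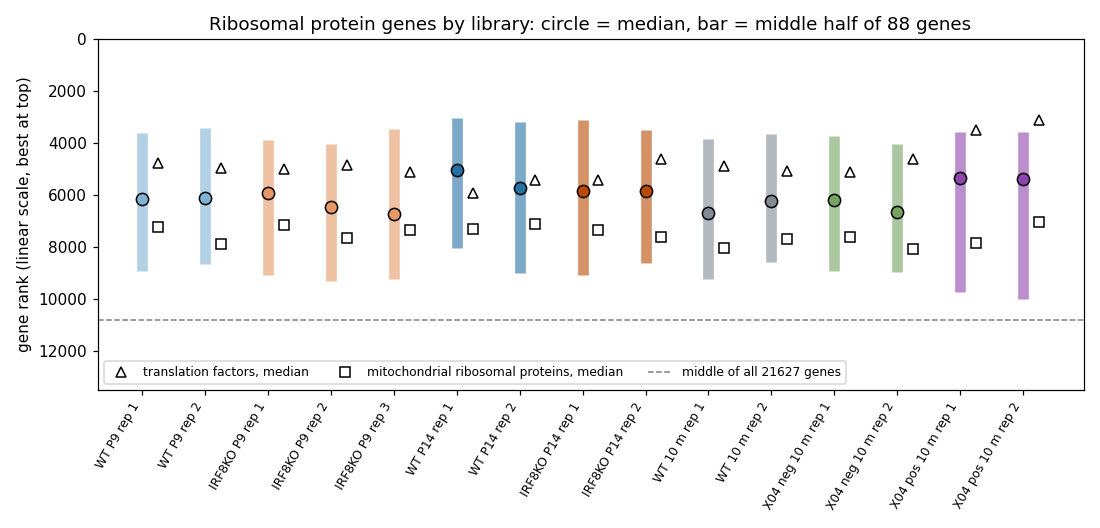
Gene rank (linear scale, best at top) by library, with the median of the 88 ribosomal protein genes as a circle and the range between their quartiles as a bar, and the medians of 41 translation factors and 78 mitochondrial ribosomal proteins as open symbols. The circles lie above the dashed line at the middle of all genes in all 15 libraries.

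As a standard, the members varied between groups about as much as other genes of their rank. The spread of a gene was measured as the SD of its 7 group means of log2 rank, over genes with a peak in all 15 libraries. Its median was 0.27 for 82 members, 0.29 for 13996 genes, 0.34 for 9047 genes in the same band of ranks (1422 to 10116, set by the subunit genes) and 0.32 for the 4948 of these with a summit at a start. Without the X04 positive group it was 0.24, 0.23, 0.27 and 0.25. The median SD within a group was 0.27, 0.23, 0.26 and 0.27 in the same order. These are SDs of single libraries and those above are SDs of means over 2 or 3 libraries, so they are not set against each other. The members whose group means differed least were Rpl19 (SD 0.04), Rps4x (0.09), Rpl7a (0.1), Rps27 (0.12) and Rpl7l1 (0.13). These lie mostly low in the order, where a given change of rank is a small ratio. Those that differed most were Rps29 (1.94), Rps21 (0.88), Rps23 (0.57), Rps9 (0.56) and Rpl37 (0.55). The group means of Rps23, a protein of the decoding centre, ran from 7747 to 9702 in the young groups and were 3411 in X04 positive, 6611 in X04 negative and 4662 in WT cells of 10 months. Young and 10-month libraries were not set against each other in a test. Rps19, a small subunit gene mutated in Diamond-Blackfan anaemia, and Rpl36 had 3 or more summits in each of the 15 libraries.

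Changes between groups were tested with limma on −log2 gene rank over all genes with a peak in every library of at least 1 group, and called at a Benjamini-Hochberg adjusted p under 0.05 over all genes tested. Of the 88 members 84 entered, all but 4 copies. A difference is given as log2 position, where −1 means that the rank number doubled. Groups that shared libraries, such as WT at P9 in the genotype and the age comparison, do not give independent comparisons. In these bulk libraries a change in which cells were sampled and a change of accessibility per cell cannot be told apart.

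In IRF8KO microglia at P9 the promoters of Rpl13 and Rpl24, both of the large subunit, stood lower in rank than in WT, and no member stood higher. Rpl13 ranked at 2826.5 and 2292 in WT and at 5909.5, 5871 and 5116.5 in IRF8KO, so that the groups did not overlap and the rank number rose 2.21-fold (log2 position −1.14, SE 0.21, adjusted p = 0.00334). The groups of Rpl24, the gene mutated in the belly spot and tail mouse, did not overlap either. It ranked at 7020.0 and 6068 in WT and at 8776, 9094 and 9114 in IRF8KO (−0.46, SE 0.14, adjusted p = 0.0414). These 2 of 84 members compare with 15% of 16778 genes called in this comparison (6.99% higher and 7.98% lower). Rpl13 lies on chromosome 8 (123102350 to 123105244) and Rpl24 on chromosome 16 (55966275 to 55971437). The median member difference was −0.05. The call of Rpl24 was lost in 10 of 14 alternatives, with adjusted p up to 0.23, among them without any one of the 5 libraries, and that of Rpl13 was kept in all 14.

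At P14 there were 7 members that stood lower in IRF8KO and none that stood higher, a split that did not hold without either IRF8KO library. They were Rpl6, Rpl12 and Rpl13 of the large subunit, Rplp2 of the stalk, and Rps15, Rps16 and Rps21 of the small subunit. Their 7 of 84 compare with 17.8% of 16778 genes called (9.52% higher and 8.24% lower), so the share of members that were lower was close to the background. Rpl6 ranked at 4671 and 5311 in WT and at 8393 and 8341.5 in IRF8KO (log2 position −0.75, SE 0.14, adjusted p = 0.00357). Rpl13 ranked at 2753 and 3746 in WT and at 6198 and 7532 in IRF8KO (−1.09, SE 0.23, adjusted p = 0.00738). Neither pair of groups overlapped, and Rpl13 thus stood lower at both ages by a similar step. The stalk gene Rplp2 ranked at 3737.5 and 3050.5 in WT and at 6713.5 and 6469.5 in IRF8KO (−0.96, SE 0.23, adjusted p = 0.0129). Rpl12, which sits at the base of the stalk, ranked at 5979.5 and 7538.5 in WT and at 9066.5 and 10861 in IRF8KO (−0.56, SE 0.15, adjusted p = 0.0211). Rplp2 lies on chromosome 7 (141447651 to 141451359) and Rpl12 on chromosome 2 (32961712 to 32964045), and each shares its summit with the neighbour named above. Rps21 had the widest gap, ranking at 326.0 and 513.0 in WT and at 1492 and 1426 in IRF8KO (−1.83, SE 0.5, adjusted p = 0.0258).

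At Rps21, Rpl6, Rpl12, Rplp2 and Rps15 both WT libraries of P14 ranked better than the 7 other young libraries, WT at P9 included. The calls had already selected these genes for a better rank in WT than in IRF8KO at P14. Over all 88 members, WT at P14 had the best mean rank of the young groups at 34. Among these were Rpl10l, Rps27rt and Rpl32l, which had no peak in any young library. Their order was set only by the shared last place, 18805 in WT at P14. The same count was not made over all genes, so it is not read as a trait of the members. Rps21 ranked at 1847 and 1246 in WT at P9 and from 1117 to 2340.0 in IRF8KO at P9. At Rpl13, by contrast, the 4 WT libraries ranked from 2292 to 3746 and the 5 IRF8KO libraries from 5116.5 to 7532. At 10 months its ranks in WT, 5735 and 5488.5, lay in the range of the young IRF8KO libraries and not of the young WT libraries. Rps16 ranked at 7109 and 8171 in WT and at 10112 and 9594 in IRF8KO at P14 (−0.37, SE 0.11, adjusted p = 0.0432), and Rps15 at 5072 and 4833 against 6735.5 and 7070.5 (−0.48, SE 0.15, adjusted p = 0.0464), without overlap in either. The interaction of genotype and age was called at 0 of 84 members (limma, lowest adjusted p = 0.076, 15 at an unadjusted p under 0.05) against 3.11% of all genes (2.24% above 0 and 0.87% below), so a call at one age and not at the other is not shown to differ.

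**Figure D4:**
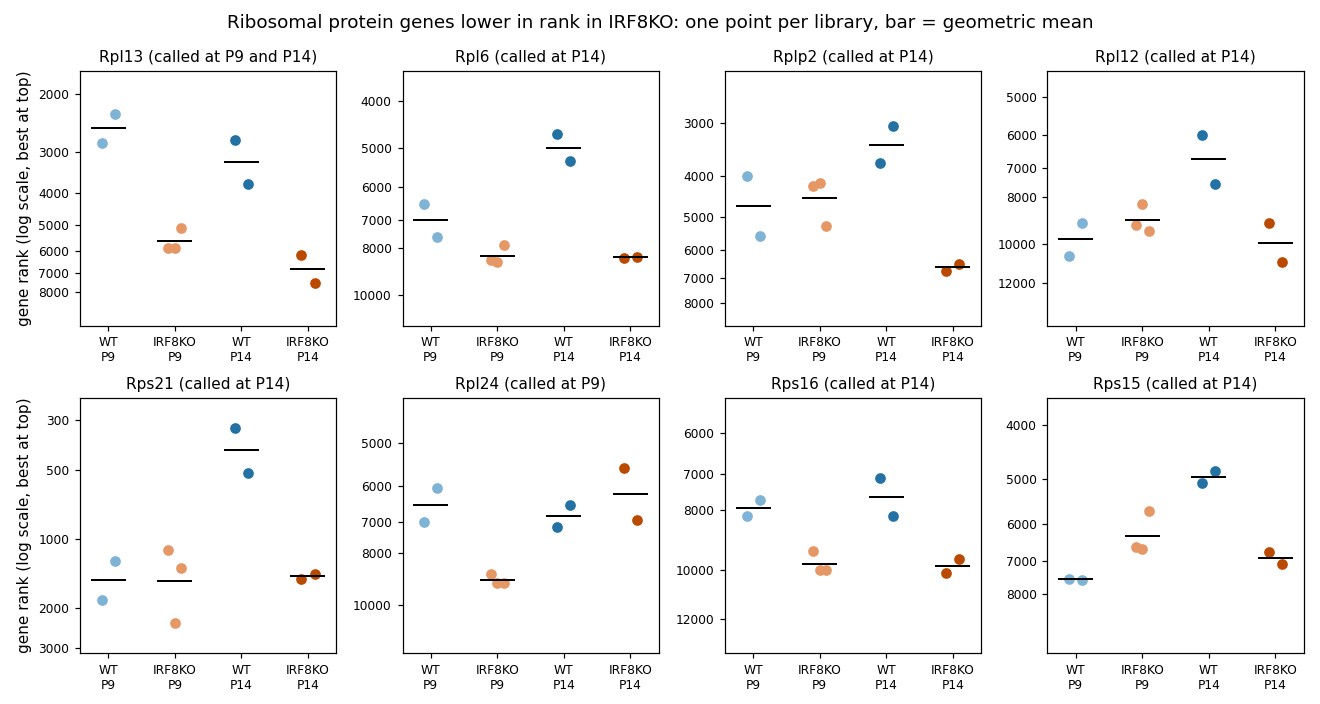
Gene rank (log scale, best at top) of the 8 ribosomal protein genes called between IRF8KO and WT, with one point per library and a bar at the geometric mean, for WT and IRF8KO at P9 and P14. Rpl13 is lower in IRF8KO at both ages, and in Rps21 the WT libraries at P14 (326.0 and 513.0) lie above all the others.

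The promoters of 3 of these genes are shown because they differ in what they hold, with any of the same motifs in capitals: Rpl13 (chr8:123102230-123102364, plus strand), Rpl6 (chr5:121204381-121204515, plus strand) and Rps21 (chr2:180257259-180257393, plus strand).
Rpl13: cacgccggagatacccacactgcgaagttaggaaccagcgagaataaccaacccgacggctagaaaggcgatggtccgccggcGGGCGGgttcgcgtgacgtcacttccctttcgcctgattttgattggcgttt
Rpl6: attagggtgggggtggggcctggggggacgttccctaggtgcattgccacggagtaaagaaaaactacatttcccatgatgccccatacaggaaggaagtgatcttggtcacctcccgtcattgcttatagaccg
Rps21: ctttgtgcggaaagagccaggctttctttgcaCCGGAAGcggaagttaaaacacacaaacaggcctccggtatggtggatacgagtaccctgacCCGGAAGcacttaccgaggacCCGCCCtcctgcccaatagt
The stretch of Rps21 holds 3 matches, that of Rpl13 holds 1 and that of Rpl6 holds 0. Their median summits lay 126 bp before the start (−126) at Rps21 and 28 bp after it at Rpl13, both just outside the printed stretch. That of Rpl6 lay at −8.0 bp. The same 7 genes were called at P14 when only summits within 500 bp of a start were used, 7 of 62 members against 9.46% of 10965 genes, and at P9 Rpl13 alone was, 1 of 62 against 6.97%. Those summits gave 0 of 62 against 1.7% between the ages in WT and 2 of 62 against 4.11% in IRF8KO. They gave 0 of 61 against 0.00957% for X04 negative cells and WT (limma), and 0 of 61 against 8.68% for X04 positive cells. Rplp1, named below for X04 positive cells, has no listed start and was not among the 61.

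The direction at P14 depended on the measure. When peaks were ranked by the authors' fold enrichment in place of −log10 p, 16 members were called at P14, 11 higher and 5 lower. Of all genes 21.1% were called in either direction, and their split by direction under this ranking is not given here. Of the 7 lower members, 4 (Rpl6, Rpl12, Rpl13 and Rps16) were also called lower by fold. The other 3 kept the sign without the call, Rps21 at −0.19 (adjusted p = 0.694), Rplp2 at −0.11 (adjusted p = 0.692) and Rps15 at −0.44 (adjusted p = 0.0792). By −log10 p the one-sided direction also rested on single libraries. Without replicate 2 of IRF8KO at P14, 3 members were called higher and 3 lower, and of the 7 only Rpl6 and Rplp2 were among them. Without replicate 1 of IRF8KO, 1 was called higher and 3 lower (Rpl6, Rpl12 and Rpl13). Without replicate 1 of WT 2 were called, Rpl6 and Rplp2, both lower, and without replicate 2 of WT 5 were, all lower. The strength of the libraries moved with genotype in opposite directions at the 2 ages, as given above, and its part in these calls was not tested. Markers of microglia ranked at a median of 3063.75 ± 461.39 in WT and 4755 ± 920.65 in IRF8KO at P14 (each n = 2), and 1 of the 10, Fcrls, was called lower. Of the 4 neuron markers, Syt1 and Stmn2 were called lower in IRF8KO at P9 and higher at P14. Of the 4 oligodendrocyte markers, Mog was lower at P9 (log2 position −0.98, adjusted p = 1.87e-05) and at P14 (−0.82, adjusted p = 0.000128). Of the 4 astrocyte markers, Slc1a2 was lower at both ages, Aqp4 lower at P9 and Aldh1l1 higher at P14. Of the 4 endothelial markers, Cldn5 was higher at P9 and Ly6c1 lower at P14. The neutrophil markers S100a8 and S100a9 were higher at P9 (limma, 0.26, adjusted p = 0.0119, and 0.33, adjusted p = 0.00675). Their geometric mean ranks were 14891 and 15247 in IRF8KO and 17801 and 19125 in WT. The rank 19125 is the last place, shared by genes without a peak in WT at P9. Cldn5 in WT at P9 (19125), Aqp4 in IRF8KO at P9 (19008) and Ly6c1 in IRF8KO at P14 (19132) also stood in last place. Tied last ranks hardly vary, so the p-values of S100a9, Cldn5, Aqp4 and Ly6c1 measure no spread of accessibility in that group. The part of these lists in the member ranks was not tested.

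Between P9 and P14 few ribosomal protein genes moved. In WT 0 of 84 members were called (limma, lowest adjusted p = 0.103, 8 at an unadjusted p under 0.05) against 1.16% of all genes (0.197% higher and 0.96% lower). In IRF8KO 2 members stood higher at P14, against 4.02% of all genes called (2.47% higher and 1.55% lower). Rpl36a, an X-linked large subunit gene, ranked at 7709, 8648 and 8781 at P9 and at 4826 and 5840.0 at P14 (log2 position 0.66, SE 0.13, adjusted p = 0.0173). Rps12, a small subunit gene, ranked at 5075, 5105 and 5799 at P9 and at 2522 and 3148 at P14 (0.92, SE 0.22, adjusted p = 0.0415). Neither pair overlapped, and both genes carry one of the promoters printed above. In WT the ranks of Rps12 were 4629 and 3966 at P9 and 2515 and 3279 at P14, which also did not overlap but was not called. Ranking by fold called 12 members higher in IRF8KO at P14. Of all genes 9.47% were called by fold in either direction, with no split by direction given here. Without replicate 2 or 3 of IRF8KO at P9 the count of members by −log10 p was 0. Age and library strength cannot be told apart in IRF8KO, whose libraries had 73.4 to 80.65 at P9 and 22.83 and 26.55 at P14 by the measure above.

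At 10 months X04 negative 5xFAD microglia and WT microglia had 0 of 84 members called (limma, lowest adjusted p = 0.992, 2 at an unadjusted p under 0.05) against 0.00577% of 17321 genes, which was 1 gene. In simulated libraries of this design a 2-fold move in rank was recovered in 0.8% of cases and a 4-fold move in 33.4%, so moves of the size seen in the young groups were mostly not detectable here. The median member difference was −0.02, with 39 members above 0 and 45 below.

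X04 positive microglia differed from X04 negative ones at Rplp1 and Rpl12, which encode a stalk protein and the protein at its base. Rplp1 (chromosome 9, 61913283 to 61914510) ranked at 9116 and 9950.0 in X04 negative and at 4851.5 and 3687 in X04 positive cells (log2 position 1.17, SE 0.25, adjusted p = 0.0304). Rpl12 ranked at 8041.5 and 8027 in X04 negative and at 13925 and 15645 in X04 positive cells (−0.88, SE 0.2, adjusted p = 0.0382). The groups did not overlap in either, and the 2 moved in opposite directions. These 2 of 84 compare with 9.8% of all genes called (4.16% higher and 5.65% lower). In both alternatives without an X04 negative library, without a filter and among genes up to 20 kb the count was 0. Without replicate 1 of X04 positive it was 17 (28.7% of all genes), and without replicate 2 it was 8 (21.1%). WT at 10 months, which shares the dye, ranked Rplp1 at 7636 and 5928 and Rpl12 at 6398.5 and 9020.0.

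In the X04 positive libraries the best summit at Rps29, a small subunit gene on chromosome 12 (69157722 to 69159186), lay in a neighbouring gene. In the 13 other libraries it lay from 23 bp inside to 6 bp beyond the higher coordinate of the gene body (−23 to 6), and Rps29 ranked from 1469.5 to 3768 with a fold of 14.5 to 19.9. In both X04 positive libraries the summit lay inside Rn7s1, a 7S RNA gene 109 bp away (69159295 to 69159593). There Rps29 ranked at 1181 with a fold of 13 in replicate 1 and at 4.0 with a fold of 35.2 in replicate 2. This place of Rps29 is thus set by a summit outside the gene. Without the X04 positive group the SD of its group means was 0.43 in place of 1.94. Rps9 ranked at 6176 and 13991.5 in X04 positive cells and from 2024 to 5298 in all 13 other libraries. Its best summits spanned 3212 bp over the 15 libraries, so these ranks do not all belong to the same site.

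Other markers moved in the X04 positive libraries as well. All 10 microglia markers stood lower there than in X04 negative cells and 6 of the 10 were called, with median ranks of 7333.25 ± 496.74 and 3527 ± 386.79 (each n = 2). In differences, 3 of the 4 neuron markers stood higher. All 4 were strong in both X04 positive libraries, against 0 to 2 in each of the other 13, with median ranks of 7736.12 ± 92.1 in X04 positive and 12485.12 ± 54.62 in X04 negative cells. Of these, Syt1 and Stmn2 were called higher. Of the oligodendrocyte markers 1 of 4, Mog, was called, and it was lower in X04 positive cells. The neutrophil markers S100a8, S100a9 and Ly6g and the lymphocyte marker Cd3e were strong in 0 libraries, and the lymphocyte marker Cd79a was strong in 1, the second X04 positive library. The part of neuronal DNA or of library strength in the member ranks was not tested.

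**Figure D5:**
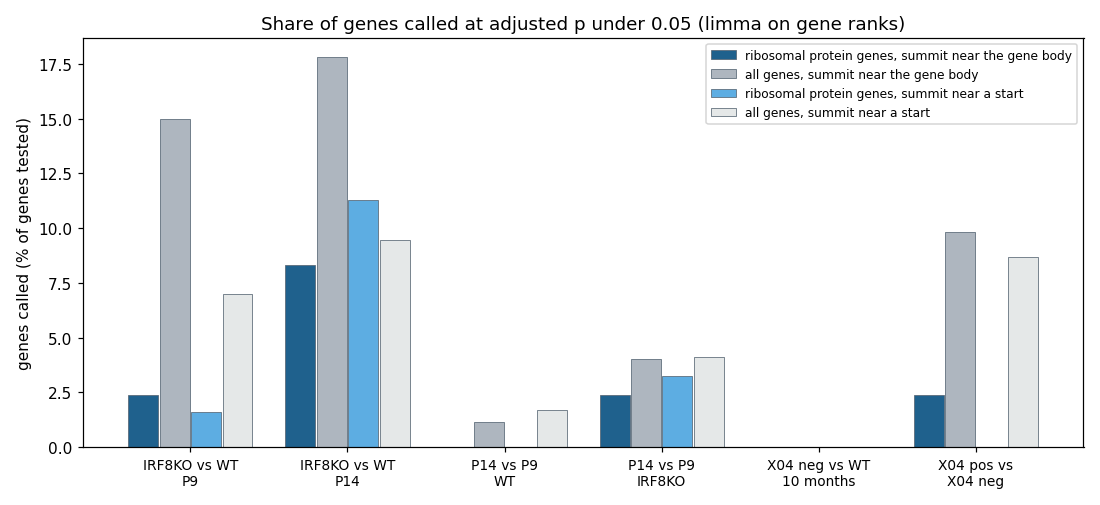
Share of genes called (%, from 0) in the 6 comparisons, for ribosomal protein genes and for all genes tested, with summits near the gene body (84 members) and with summits within 500 bp of a start (62 members in the young and 61 in the 10-month libraries). With summits near the gene body the members lie below all genes in each comparison with a called member, and with summits at a start they exceed all genes at P14 only.

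Other genes of translation were read the same way. Averaged over the libraries of a group, the median rank of the translation factors was 4862.5 to 5682.5 in 6 groups and 3312.25 ± 257.03 in X04 positive cells (n = 2), and that of the mitochondrial ribosomal proteins 7220.88 to 7858.88 in all 7. Ribosomal proteins whose symbols fall outside the rule include Fau and Rack1. Of these Rack1, a scaffold on the small subunit, was called once, lower in IRF8KO at P14 (geometric mean rank 8257 against 5237, log2 position −0.66, SE 0.16, adjusted p = 0.0134). The 78 genes of mitochondrial ribosomal proteins, which serve a separate ribosome, had 1 higher (1.28% called) at P9 in IRF8KO against WT, 2 higher and 1 lower at P14 (3.85%), 0 in WT and 1 lower in IRF8KO between the ages, 0 for X04 negative against WT, and 1 higher and 3 lower in X04 positive (5.13%). Of the 41 translation factors, 1 was called lower at P9 (Eif4g1) and 1 higher at P14 (Pabpc1) in IRF8KO (2.44% each), 0 in each of the age comparisons and for X04 negative against WT, and 4 higher in X04 positive cells (Eif5a, Eif3j1, Eef1g and Eif2s1, 9.76%). Of the 43 genes of ribosome biogenesis, 1 was higher (Mdn1) and 1 lower (Rrs1) in IRF8KO at P9 (4.65%), and 4 were higher at P14 (Mdn1, Npm1, Bms1 and Wdr43, 9.3%). Between the ages 0 were called in WT and 2 were higher in IRF8KO (Rrs1 and Npm1, 4.65%), and at 10 months 0 were called for X04 negative cells and 3 higher and 2 lower in X04 positive cells (11.6%). The shares of all genes called were 15% at P9 and 17.8% at P14 in IRF8KO against WT. They were 1.16% and 4.02% between the ages in WT and IRF8KO, and 9.8% for X04 positive cells. Counting both directions, the mitochondrial, translation factor and biogenesis lists lay below or little above these shares. By direction, the translation factors called in X04 positive cells, all higher, compare with 4.16% of all genes called higher. Their median difference there was 0.41, with 31 above 0 and 10 below, against 0.04 for all genes. The cause was not tested. Mdn1, a large AAA ATPase that remodels the maturing large subunit, was called higher at both ages in IRF8KO.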

How the data were processed

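Peak lists of 15 ATAC-seq libraries were used, 1 list for each library. Per the submitters' processing notes, bcl2fastq, Bowtie2, MACS2 2.2.7.1 and deepTools were used with the mm10 build, with no settings given. The lists hold peaks called by the authors per library, not on pooled samples. The authors deposited a fold enrichment at each summit, which is a ratio, a −log10 p and a −log10 q for each peak, and the distance from the peak's start to its summit in bp. They also deposited a display score for each peak, which was not used. These values are the authors' own and were used only to rank peaks within a list. Read counts were not analysed here, so depth is unknown and no counting interval is given. The lists held 126070 to 194399 peaks, 1 for each summit, in 109396 to 189096 distinct intervals.

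Genes, their bodies and snoRNAs were taken from RefSeq for GRCm38.p6. Gene ranks (ties at their mean) were tested with limma 3.58.1 (trend) in R 4.3.3, with the 9 young and the 6 ten-month libraries fitted apart. Mean ranks are geometric. Python 3.11.15, numpy 2.4.6, pandas 2.3.3, scipy 1.17.1 and matplotlib 3.10.9 were used. On simulated ranks, with 200 genes changed in each of 5 rounds over 16778 young or 17321 ten-month genes, the young designs recovered 26.8% to 36% of 2-fold and 75.8% to 86.2% of 4-fold moves with 8 to 10.2 mean false calls. X04 positive against X04 negative recovered 1% and 30%. The data themselves gave 1698 called genes in that comparison and 2980 between genotypes at P14, more than the 200 changed here. The adjusted p depends on how many genes change, so recovery in those comparisons may differ. Named members were the 5 best and 5 worst ranked, those not strong in every library, up to 5 called per comparison and direction, those that varied most and least, the copies, the references, the stalk and X-linked genes. Rps15, Rps16, Rps15a, Rpl8, Rpl4, Rpl18 and Rpl41 fell outside that rule and were named after their values were seen, as were the called genes of other lists. Some members and genes of other lists are not reported here by name. The members and lists were chosen with earlier results of these data known. Alternatives were ranking by fold, summits in the gene body or at a start only, the 100000 top peaks, genes up to 20 kb, normal scores, no filter, all 15 libraries in one fit, a replicate block, and leaving out each library.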

Additional observations from a re-analysis of the deposited data

How the results depend on the processing

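At P9 in IRF8KO against WT, 2 members were called, and the count was 4 by fold, 1 with no filter, 1 with all 15 libraries in one fit, 1 with summits at a start and 1 without any one library (lowest 1, highest 1). At P14 the 7 became 16 by fold and 4 with all 15 libraries, and ran from 2 to 6 without one library, with 2 without replicate 1 of WT, 4 without replicate 1 of IRF8KO (1 higher and 3 lower) and 6 without its replicate 2 (3 higher and 3 lower). With summits in the gene body only, Rps16 (0.57) and Rplp2 (0.12) had the opposite sign at P14, and 2 of the 7 were among the 9 called. Between P9 and P14 in IRF8KO the 2 became 12 by fold, 1 with no filter and 0 with all 15 libraries, and ran from 0 to 6 without one library (1 without replicate 1 of P9, 6 without replicate 2 of P14). For X04 positive against X04 negative the 2 became 15 with all 15 libraries, 0 with no filter, 0 among genes up to 20 kb and 0 with summits at a start, and ran from 0 to 17 without one library. The counts for WT between the ages and for X04 negative against WT were 0 in all 13 and 14 alternatives. The 67 members strong in all 15 libraries became 12 with summits in the gene body only and stayed from 56 to 76 in the other 19. Apart from the gene body count, whose summits lie before the start, the cause of these shifts was not tested. Rplp1 has no listed start, so its call in X04 positive cells could not be repeated with summits at a start. Where an arm kept 1 library, that library was taken to vary like the other groups.

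Libraries of equal replicate number showed no shared deviation from their group means (42 pairs over 13996 genes, r from −0.037 to 0.057). Between groups of 2 libraries the 2 pairs repeat each other, because the deviations within such a group are equal and opposite. Whether groups share mice cannot be read from these values. With the replicate block the counts were 1 at P9, 5 at P14, 0 and 0 between the ages in WT and IRF8KO, 0 for X04 negative against WT and 2 for X04 positive. The alternative with summits at a start and the one without the X04 positive libraries were chosen after seeing the data. Without read counts, the depth behind a rank is unknown, and the X04 positive lists were the weakest.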
